A study of Homo sapiens with 24 samples.

Results

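The genes described here encode the proteins that attach chromosomes to the mitotic spindle and hold back anaphase until they are attached: the chromosomal passenger complex of Survivin (BIRC5), Aurora A with its activator TPX2, the spindle checkpoint, the layers of the kinetochore, and the shugoshins. They were chosen by name, as the probes that carry 1 of 46 listed gene names on the array, and each gene is represented by the brightest of its probes. The list was made with earlier results of these data known, so counts over it are descriptions and not an independent check. All 46 genes were found, with 62 probes among the 34127 probes and 25992 gene names of the array. The array uses older names for CENPU (MLF1IP), KNL1 (CASC5), SGO1 (SGOL1) and SGO2 (SGOL2), and these are kept below.

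RNA was measured on 24 one-color Agilent arrays, on which the brightness of a spot reports how much labeled RNA its probe has bound. A549 and H1975, both human lung adenocarcinoma cell lines, received Pirfenidone at 0.75 mg/ml or PBS in the same volume and were harvested after 6 h or 24 h, so that the 8 groups of 3 arrays were A549 PBS 6 h, A549 Pirfenidone 6 h, A549 PBS 24 h, A549 Pirfenidone 24 h, H1975 PBS 6 h, H1975 Pirfenidone 6 h, H1975 PBS 24 h and H1975 Pirfenidone 24 h. Pirfenidone is a drug approved for idiopathic pulmonary fibrosis, and the comparison asked what it does to the transcripts of tumor cells in culture at 1 dose. That dose follows the sample titles, which name no volume unit. A figure legend of the study gives a higher dose for A549 transcriptome data. The arrays of a line were made in 3 runs, a run being the arrays whose scanner files carry the same date, and runs 1 to 4 are numbered in date order (A549 in runs 1, 2 and 3, H1975 in runs 1, 3 and 4). The labels do not say that the 3 arrays of a group came from separate cultures, so the p-values measure the spread between these samples, which may be technical. In bulk RNA, fewer cells of a kind and less RNA per cell cannot be told apart.

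A kinetochore is built on each centromere in layers. The inner layer, marked by the centromeric histone CENPA and held by the constitutive centromere-associated network, carries an outer layer of the KNL1, MIS12 and NDC80 complexes that grips the microtubule. The passenger complex, in which Survivin, borealin (CDCA8) and INCENP place the kinase Aurora B (AURKB), releases wrong attachments, and the checkpoint proteins stop the ubiquitin ligase of anaphase while a kinetochore is still empty. Most of these genes are transcribed mainly in the G2 phase and mitosis, so their RNA is low in cells that do not divide.

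Levels are given below on a log2 scale, relative to the 75th percentile of the array, so that 0 is the brightness of that percentile and a difference of 1 is a doubling. Each array had 62.7% to 69.5% of its probes well above background and none saturated, and the 46 brightest probes of the members were well above background on all 24 arrays. The epithelial markers EPCAM, KRT8, KRT18 and CDH1 were above background on all 12 arrays of both lines. NKX2-1, a lung lineage marker, was above background on 0 of 12 A549 arrays and on 12 of 12 H1975 arrays, and SFTPB on 1 and on 9. Of the markers of other cells, the fibroblast gene DCN was above background on no array, PTPRC of leukocytes was above background on 12 A549 and 11 H1975 arrays at low levels of -6.83 to -5.70, PECAM1 of endothelium was above background on 12 H1975 arrays and no A549 array, and LUM of fibroblasts on 12 A549 arrays and no H1975 array. The part of these markers in differences between the lines was not tested. In the A549 comparison at 24 h, run 1 stood apart: over all probes tested, its Pirfenidone minus PBS differences correlated with those of runs 2 and 3 with a Pearson r of -0.38 and -0.55, whereas the other pairs of runs gave 0.29 to 0.64 within every comparison. On the array labelled A549 PBS 24 h of run 1, every member was lower than the mean of the other A549 PBS 24 h arrays, with a median difference of -1.03 (range -1.87 to -0.02). The labels of this pair were used as deposited. Whether the PBS and Pirfenidone arrays of run 1 carry the right labels cannot be told from them, and the direction of the A549 24 h values in that run depends on it. Results that rest on the A549 24 h arrays are therefore given with and without both arrays of that run.

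The promoters of 4 genes called lower in H1975 at 24 h and of 1 whose difference did not pass are shown as examples, picked with those values known. TTTGAA is known as the cell cycle genes homology region, at which the repressor complex DREAM acts in resting cells, and CCAAT is the box bound by NF-Y. Both were searched on both strands in the 300 bases around the gene start that RefSeq gives on GRCh38.p14, 250 before and 50 after, in the first listed promoter of each gene. Each stretch below runs 5′ to 3′ on the strand of the gene, from 150 bases before the start through its first 10 bases, with matches to TTTGAA, to CCAAT or to their reverse complements in capitals. They are the borealin gene at chr1:37692366-37692525 (plus strand), BUB1B at chr15:40160919-40161078 (plus), ZWINT at chr10:56361250-56361409 (minus), SPC25 at chr2:168890421-168890580 (minus) and MAD1L1 at chr7:2232936-2233095 (minus).
CDCA8: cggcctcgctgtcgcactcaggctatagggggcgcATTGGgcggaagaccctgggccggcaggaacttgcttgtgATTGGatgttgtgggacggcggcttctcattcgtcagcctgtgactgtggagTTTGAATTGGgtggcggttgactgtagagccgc
BUB1B: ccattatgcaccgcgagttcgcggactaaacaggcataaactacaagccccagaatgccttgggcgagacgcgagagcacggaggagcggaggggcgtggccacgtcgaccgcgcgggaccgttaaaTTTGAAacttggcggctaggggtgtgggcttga
ZWINT: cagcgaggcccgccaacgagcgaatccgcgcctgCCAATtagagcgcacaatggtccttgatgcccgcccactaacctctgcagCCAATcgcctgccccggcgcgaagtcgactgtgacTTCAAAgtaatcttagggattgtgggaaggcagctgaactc
SPC25: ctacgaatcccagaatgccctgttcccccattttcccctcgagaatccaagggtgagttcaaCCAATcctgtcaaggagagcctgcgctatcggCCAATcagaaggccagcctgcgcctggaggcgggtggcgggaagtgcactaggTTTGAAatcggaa
MAD1L1: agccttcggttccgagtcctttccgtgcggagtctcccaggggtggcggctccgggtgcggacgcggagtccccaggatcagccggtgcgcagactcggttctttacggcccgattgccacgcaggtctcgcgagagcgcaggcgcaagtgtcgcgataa

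TTTGAA began 23 bases before the start of CDCA8 and of BUB1B, 31 before that of ZWINT and 3 before that of SPC25. In CDCA8 a CCAAT match on the other strand overlaps the end of TTTGAA. The 160 bases of MAD1L1, and its whole window, held neither. The 4 called genes shown all hold TTTGAA, and they do not stand for all called members. CENPE (-1.34) was called with neither TTTGAA nor CCAAT in its window. BUB1 (-1.33) and AURKB (-1.29) were called without TTTGAA. A promoter was in the table for 36 of the 46 members. TTTGAA was present in 16 of these (44.4%), against 4212 of the 27305 genes with a promoter (15.4%), and CCAAT in 24 (66.7%), against 35.7%. Within 50 bases of the gene start TTTGAA stood in 14 of the 36 (38.9%), against 4.67% of all genes. A match is a run of letters and not a measured binding site. Promoters of BIRC5, AURKA, TPX2, BUB3, TTK, CASC5, KNTC1, CENPH, CENPL and CENPM were not analysed here.

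In H1975 cells treated for 24 h, 25 of these 46 genes were called lower with Pirfenidone than with PBS and none higher. All 46 members had a negative difference, with a median of -1.01 on the log2 scale, against 0.02 over the 23827 probes tested. A probe counts as called at a limma adjusted p of 0.05 or less (Benjamini-Hochberg over all probes tested) and a log2 difference of at least 1 in size. Of all probes tested 1.0% were called lower by this rule and 0.890% higher. By the adjusted p alone 38 members were lower, against 3.35% of all probes. The calls were lost by the methods' t-test, paired by run, which called 0 members after adjustment (20 at its unadjusted p, and BIRC5 with an adjusted p of 0.193). A limma fit of only the arrays compared called 3 members. The shares of all probes called by these tests are not given here. In 44 members each of the 3 Pirfenidone arrays lay below each of the 3 PBS arrays, which held for 15.6% of all probes, and the groups overlapped in MIS12 and CENPT. Without the Pirfenidone 24 h array of run 1, on which the members had their lowest mean level, the median was -0.86, with all 46 differences still negative. Only CENPM stayed called (-1.10, adjusted p 0.0347), and 104 of the 23827 probes tested were called in that fit.

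**Figure D1:**
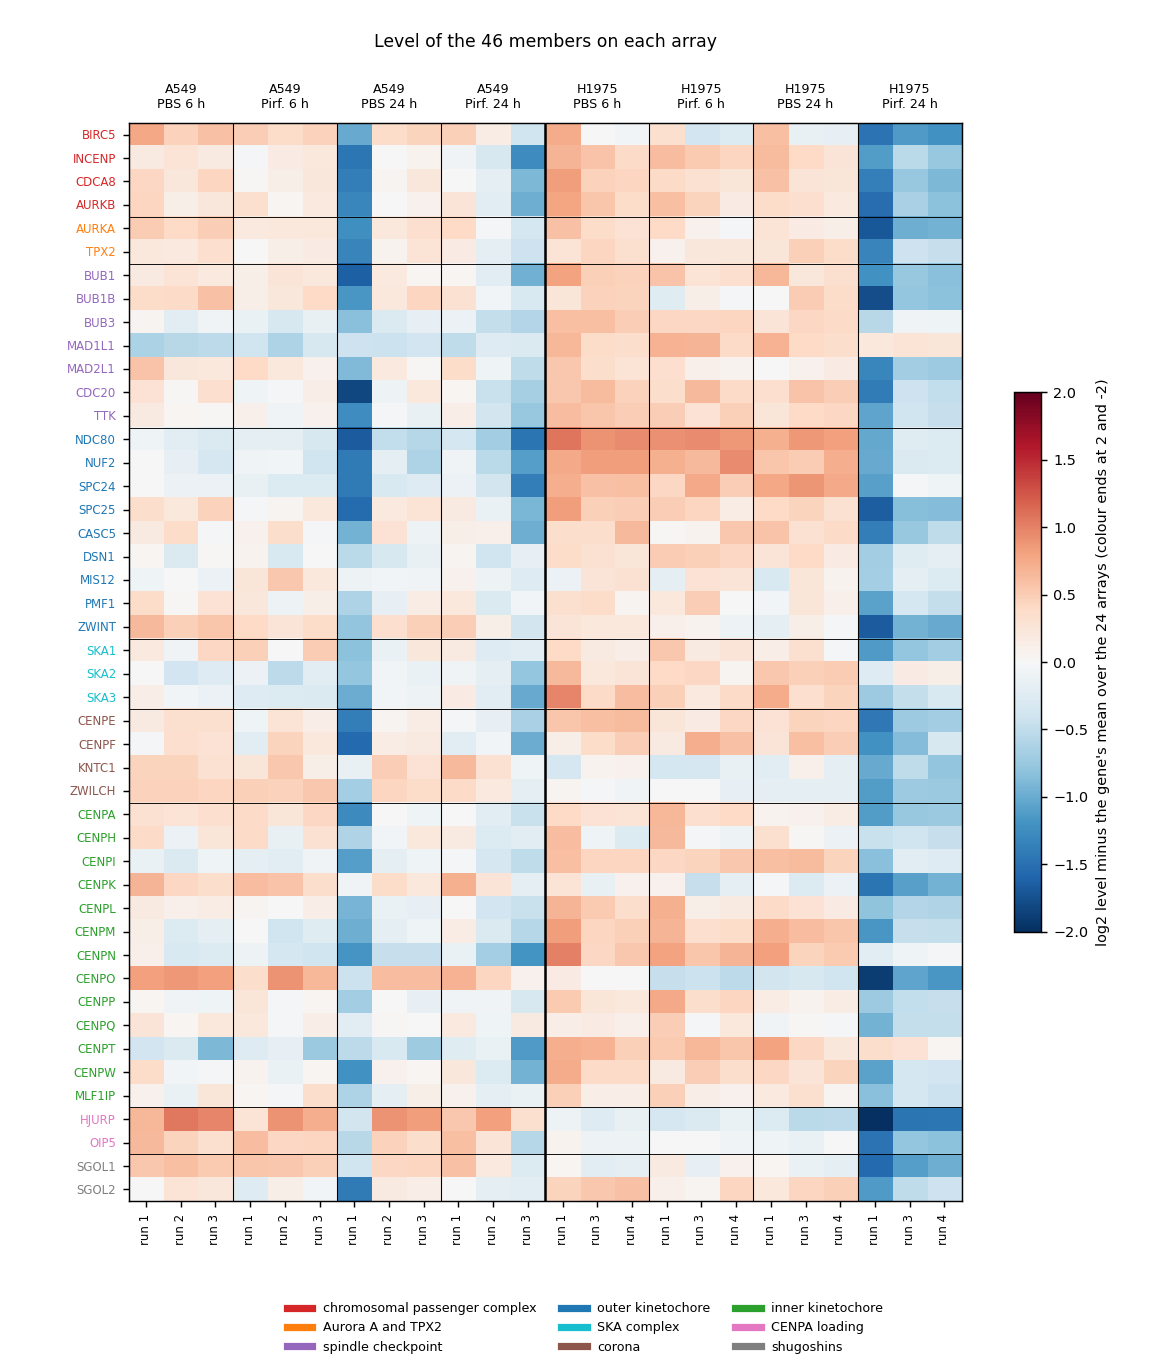
Heat map of the 46 members (rows, grouped and colored by subcomplex) on the 24 arrays (columns, 3 runs in each of the 8 groups). The color is the log2 level minus the mean of the gene over the 24 arrays. The H1975 Pirfenidone 24 h columns and the run 1 column of A549 PBS 24 h are blue for nearly all members.

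The 4 genes of the chromosomal passenger complex fell together in H1975 at 24 h, all of them called, with a median difference of -1.33. BIRC5 encodes Survivin, which binds the complex to the centromere and also inhibits apoptosis. Its probe lies at chr17:76220720-76220779 on hg19. BIRC5 stood at 5.26, 4.52 and 4.50 on the H1975 PBS 24 h arrays of runs 1, 3 and 4 and at 3.19, 3.53 and 3.45 on the Pirfenidone arrays of the same runs. The highest Pirfenidone array lay well below the lowest PBS array, and the PBS array of run 1 was the brightest of all. The difference was -1.37 ± 0.33 (SE, n = 3 per group; 95% confidence interval -2.06 to -0.67; adjusted p 0.0214), a level 2.58-fold lower. CDCA8, the borealin gene, went from 3.79, 3.46 and 3.45 to 1.84, 2.45 and 2.31, a difference of -1.37 ± 0.30 (adjusted p 0.0141). INCENP, the scaffold that activates Aurora B, went from 0.99, 0.76 and 0.62 to -0.75, -0.18 and -0.40, a difference of -1.24 ± 0.31 (adjusted p 0.0260). AURKB, the kinase itself, went from 1.50, 1.47 and 1.32 to -0.39, 0.49 and 0.32, a difference of -1.29 ± 0.32 (adjusted p 0.0241). In none of the 4 genes did the groups overlap.

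**Figure D2:**
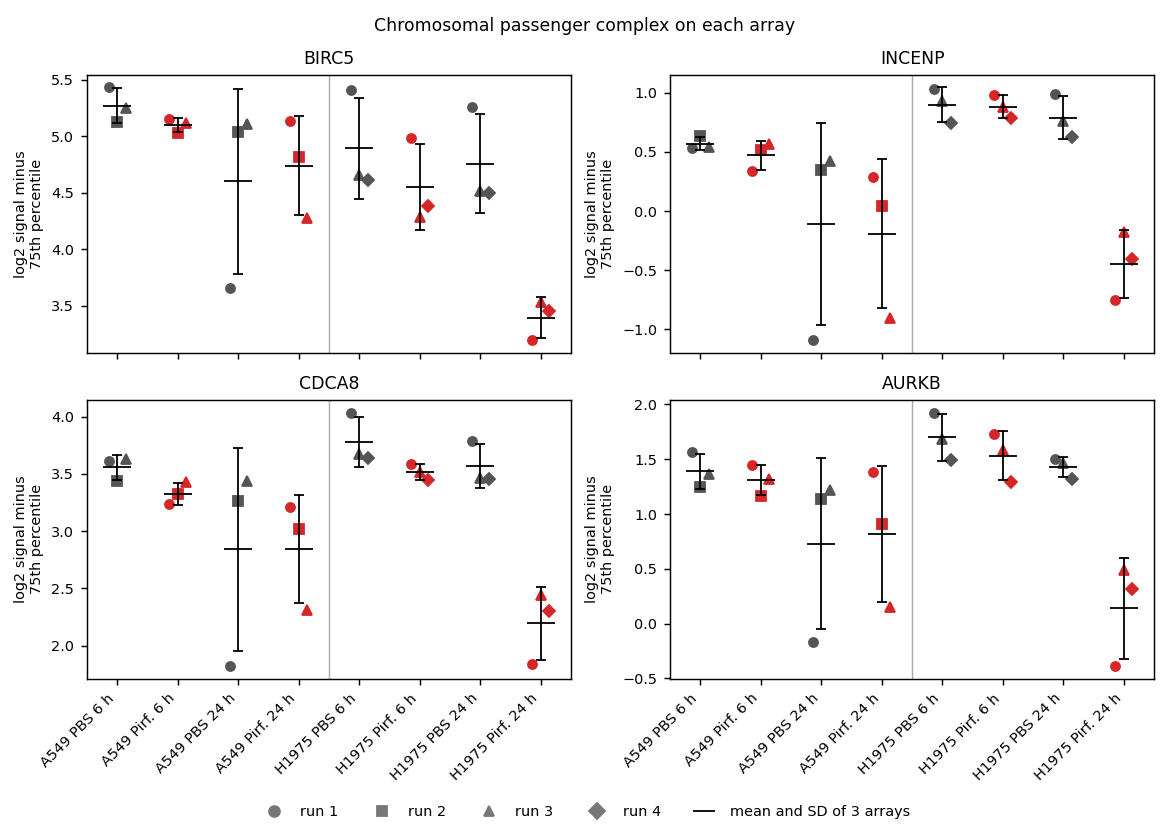
Level (log2 signal minus the 75th percentile of the array) of BIRC5, INCENP, CDCA8 and AURKB on each array of the 8 groups, with PBS in gray, Pirfenidone in red, a symbol per run, and the mean and SD of 3 arrays in black. The H1975 Pirfenidone 24 h arrays lie below the H1975 PBS 24 h arrays for all 4 genes, and in A549 PBS 24 h the run 1 array (circle) lies below the others.

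AURKA and TPX2 behaved like the passenger complex. AURKA, the Aurora kinase of centrosomes and spindle poles, stood at 2.76, 2.65 and 2.60 with PBS and at 0.80, 1.51 and 1.55 with Pirfenidone (-1.38 ± 0.30, adjusted p 0.0122). TPX2, which brings AURKA to spindle microtubules and activates it, stood at 3.24, 3.47 and 3.36 with PBS and at 1.68, 2.58 and 2.53 with Pirfenidone (-1.09 ± 0.29, adjusted p 0.0339). The 2 groups of arrays were apart for both genes, and the lowest array was that of run 1.

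Among the 7 checkpoint genes 3 were called, and their median difference was -0.997. BUB1B, whose protein BubR1 is part of the complex that inhibits CDC20, was at 1.03, 1.52 and 1.38 with PBS and at -0.76, 0.25 and 0.20 with Pirfenidone, a difference of -1.42 ± 0.31 (adjusted p 0.0141, 2.67-fold lower). BUB1, the kinase that marks the inner centromere for the shugoshins, was at 2.51, 2.06 and 2.16 and then at 0.63, 1.08 and 1.01 (-1.33 ± 0.33, adjusted p 0.0247). CDC20, the activator of the anaphase ligase that the checkpoint restrains, was at 2.49, 2.72 and 2.64 and then at 0.76, 1.73 and 1.65 (-1.24 ± 0.36, adjusted p 0.0452). For these 3 genes every Pirfenidone array was under every PBS array. TTK, the MPS1 kinase that starts the signal, and MAD2L1, the MAD2 subunit of the inhibitor, passed the adjusted p but missed the fold limit, at -0.997 and -0.990. BUB3, the adaptor of both BUB kinases, passed it with -0.58, from 2.46, 2.62 and 2.59 to 1.67, 2.15 and 2.13. MAD1L1, the platform for MAD2 and the gene shown above with neither motif, was at 0.11, -0.18 and -0.22 and then at -0.37, -0.30 and -0.34, a difference of -0.24 (adjusted p 0.258), the smallest of the 46.

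In the outer kinetochore 6 of 9 genes were called, with a median of -1.17. SPC25, a subunit of the NDC80 complex, had the most negative difference of all members: it was at 1.89, 1.94 and 1.80 with PBS and at -0.16, 0.64 and 0.62 with Pirfenidone (-1.51 ± 0.35, adjusted p 0.0184, 2.85-fold lower). The other subunits of this microtubule-binding complex were lower too. NDC80 went from 2.52, 2.68 and 2.64 to 0.79, 1.58 and 1.55 (-1.31 ± 0.27, adjusted p 0.0107), NUF2 from 1.65, 1.60 and 1.83 to 0.09, 0.80 and 0.82 (-1.12 ± 0.27, adjusted p 0.0194), and SPC24 from 1.24, 1.35 and 1.23 to -0.62, 0.45 and 0.38 (-1.20 ± 0.31, adjusted p 0.0291). The 4 subunits thus fell by 2.18-fold to 2.85-fold. CASC5, the KNL1 scaffold on which BUB1 and BUB3 dock, went from -0.27, -0.53 and -0.45 to -2.23, -1.60 and -1.35 (-1.31 ± 0.30, adjusted p 0.0178). ZWINT, its partner that recruits the corona, went from 2.60, 2.89 and 2.74 to 1.12, 1.84 and 1.77 (-1.17 ± 0.26, adjusted p 0.0141).

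The MIS12 complex, which links the inner to the outer layer, moved less. Its subunits DSN1 (-0.65) and PMF1 (-0.73) passed the adjusted p without reaching the fold limit. MIS12 itself was at 0.05, 0.59 and 0.43 with PBS and at -0.33, 0.17 and 0.08 with Pirfenidone, so that the groups overlapped (-0.38, adjusted p 0.194). In the SKA complex, which helps the kinetochore follow a shrinking microtubule, SKA1 went from -0.997, -0.81 and -1.16 to -2.25, -1.90 and -1.83 (-1.01 ± 0.22, adjusted p 0.0135) and SKA3 from 0.21, -0.19 and -0.08 to -1.27, -1.004 and -0.84 (-1.01 ± 0.26, adjusted p 0.0256). Both lie just past the fold limit. SKA2 had -0.50 (adjusted p 0.164).

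The corona is the outermost layer, seen before microtubules attach, and 2 of its 4 genes were called. CENPE, a kinesin that carries chromosomes along the spindle, went from 0.84, 0.99 and 0.99 to -0.88, -0.18 and -0.14 (-1.34 ± 0.29, adjusted p 0.0121). CENPF, a large coiled-coil protein of the corona, went from 4.10, 4.45 and 4.32 to 2.63, 2.97 and 3.52 (-1.25 ± 0.36, adjusted p 0.0460). CENPF was 1 of 2 members, with MIS12, whose largest fall was in another run than run 1. KNTC1 and ZWILCH, subunits of the complex that brings dynein to kinetochores, had -0.67 (past the adjusted p) and -0.68 (adjusted p 0.0552).

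The inner kinetochore held the largest group, and 3 of its 13 genes were called, with a median of -0.94. CENPM, which belongs to the inner network of centromere proteins, had the lowest adjusted p of all members: it was at 4.35, 4.24 and 4.17 with PBS and at 2.46, 3.16 and 3.14 with Pirfenidone (-1.33 ± 0.24, adjusted p 0.00428, 2.52-fold lower). CENPK went from -1.03, -1.29 and -1.13 to -2.47, -2.09 and -1.95 (-1.02 ± 0.20, adjusted p 0.00818), and CENPO from -0.17, -0.13 and -0.19 to -1.70, -0.85 and -0.97 (-1.01 ± 0.24, adjusted p 0.0201). In these 3 genes, all of the same network, the groups were apart. CENPA, the histone itself, was at 0.70, 0.72 and 0.78 and then at -0.49, -0.13 and -0.11, a difference of -0.98 that passed the adjusted p only, as did CENPI (-0.999), CENPL (-0.94), CENPP (-0.69), CENPQ (-0.60) and MLF1IP (-0.73). CENPH (-0.51), CENPN (-0.70), CENPT (-0.25) and CENPW (-0.97) did not pass it. CENPT, which also reaches the NDC80 complex directly, was at -2.58, -2.96 and -3.15 and then at -3.02, -3.08 and -3.34, with overlapping groups (adjusted p 0.592).

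HJURP, the chaperone that loads CENPA, went from 3.14, 2.87 and 2.88 to 1.28, 1.95 and 1.96 (-1.24 ± 0.26, adjusted p 0.0122), and OIP5, the MIS18 subunit that prepares the centromere for it, had -0.95, past the adjusted p only. Both shugoshins, which guard cohesion at the centromere, were called. SGOL1 went from -1.04, -1.21 and -1.28 to -2.65, -2.19 and -2.06 (-1.12 ± 0.21, adjusted p 0.00700), and SGOL2 from -0.40, -0.18 and -0.13 to -1.74, -1.12 and -1.03 (-1.06 ± 0.29, adjusted p 0.0376). Every Pirfenidone array of these 2 genes was below every PBS array.

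**Figure D3:**
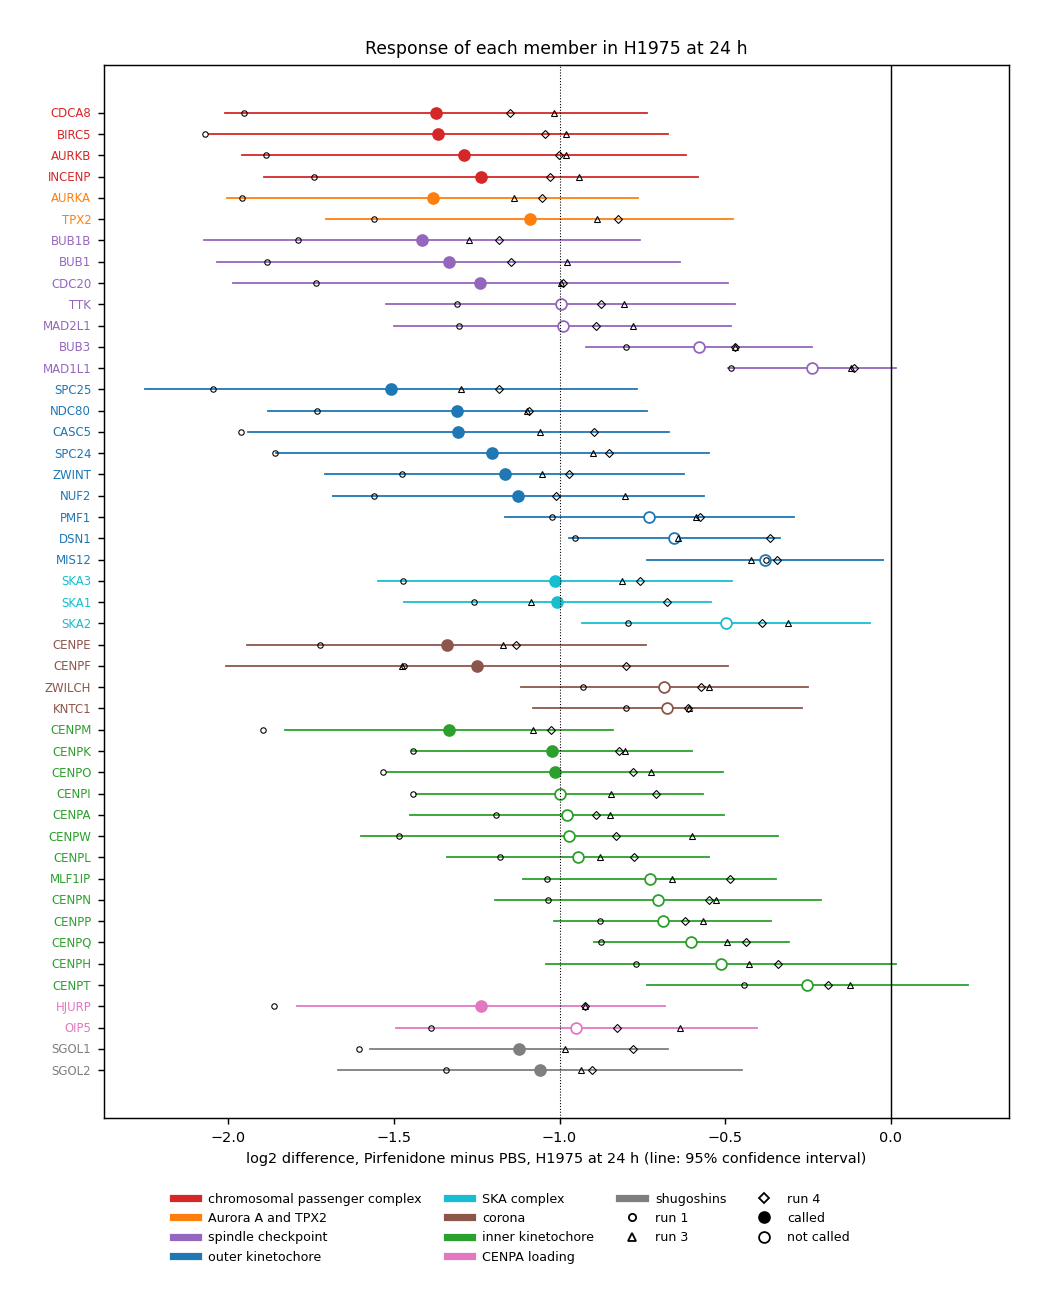
Log2 difference of each member, Pirfenidone minus PBS, in H1975 at 24 h (filled circle: called; open circle: not called; line: 95% confidence interval; small symbols: the differences within runs 1, 3 and 4). All 46 points lie left of 0, from -1.51 for SPC25 to -0.24 for MAD1L1.

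Across the 46 members the signed difference had a Pearson r of -0.44 and a Spearman rho of -0.43 with the mean signal, so that brighter probes had the more negative differences, a description over probes that share the same arrays. The genes with more than 1 probe moved in the same direction on all of them: the 16 further probes of 13 members were all negative in H1975 at 24 h, with a median of -1.11 (range -2.04 to -0.29), and 8 of the 16 were called lower. Set against the promoter letters described above, the 16 members with TTTGAA had a median difference of -1.20 (range -1.51 to -0.70) with 13 called, and the 20 without it -0.84 (range -1.34 to -0.24) with 7 called. TTTGAA was thus in 13 of 20 called members with a promoter (65.0%) and in 3 of the 16 others (18.8%), namely MAD2L1, CENPA and CENPN. The CCAAT box did not part them in this way, with medians of -1.04 in the 24 members that hold it and -1.01 in the 12 that do not. These shares are descriptions, without a test.

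Within each run of H1975 at 24 h, the Pirfenidone array was below the PBS array for 46 of 46 members. The medians were -1.46 in run 1, -0.85 in run 3 and -0.82 in run 4, against -0.0039, 0.017 and 0.042 over all probes. For 44 of the 46 members the fall was largest in run 1. On the PBS array of run 1, 23 members were lower than the mean of the other PBS arrays, with a median difference of 0.0024 and a range of -0.46 to 0.76, BIRC5 being higher there, whereas the Pirfenidone array of run 1 was lower than the mean of the other Pirfenidone arrays in 45 members, with a median of -0.57. The passenger complex fell by a median of 1.92, 0.98 and 1.04 on the log2 scale in runs 1, 3 and 4, the outer kinetochore by 1.56, 0.90 and 0.89, and the inner kinetochore by 1.18, 0.66 and 0.71. The passenger complex thus had a larger median fall than either kinetochore layer in every run. AURKA and TPX2 had medians of -1.76, -1.01 and -0.94 in these runs, so in run 3 their fall was the larger. The members' order was shared between runs, with a Pearson r across the 46 of 0.84 for runs 1 and 3, 0.91 for runs 1 and 4 and 0.85 for runs 3 and 4. These r describe probes measured on the same arrays. The H1975 PBS 24 h array of run 3 lay on a slide of its own.

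**Figure D4:**
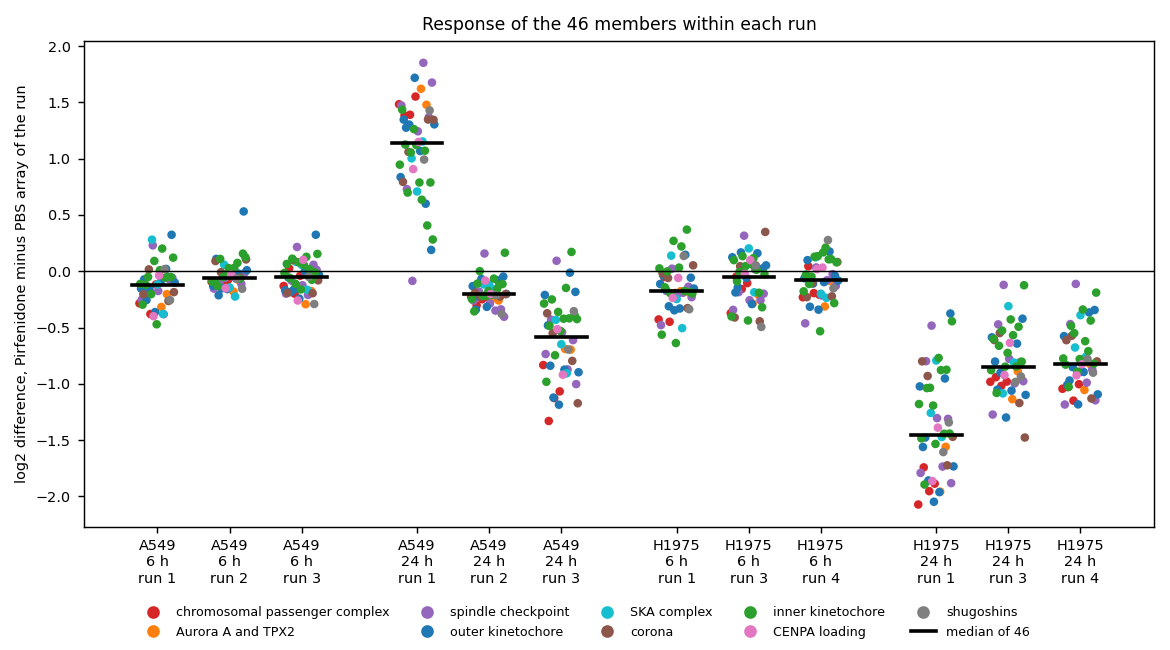
Log2 difference of the 46 members between the Pirfenidone and the PBS array of the same run, for each comparison and run, colored by subcomplex, with a black bar at the median. The 3 runs of H1975 at 24 h lie below 0 for all 46 members, and in A549 at 24 h run 1 lies above 0 (median 1.14) and runs 2 and 3 below it (medians -0.21 and -0.58).

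In A549 at 24 h the runs opposed each other, and no member was called with all arrays. The call rate over all probes tested was 0.0126%, and the methods' t-test called 0 members. An unadjusted limma p under 0.05 was found for 0 members, against 0.953% of all probes. The median difference was 0.095, with 41 members positive, against -0.024 over all probes. Per run it was 1.14 in run 1, where MAD1L1 alone was lower, -0.21 in run 2, where 43 members were lower, and -0.58 in run 3, where 44 were. Both of the latter runs were lower in 42 members, the exceptions being MAD1L1, CENPQ, CENPT and MLF1IP. BIRC5 stood at 3.66, 5.04 and 5.10 on the A549 PBS 24 h arrays of runs 1, 2 and 3 and at 5.14, 4.81 and 4.27 on the Pirfenidone arrays. Its run 1 pair was higher with Pirfenidone and the other pairs lower, so that the difference was 0.14 with all arrays. Without both arrays of run 1, 44 of the 46 members were negative with a median of -0.41 (all probes -0.027), and BIRC5 had -0.53 (adjusted p 0.687). In that fit 0 members were called, against 8 of the 23827 probes tested, and the lowest adjusted p was 0.262. Of the members 19 had an unadjusted p under 0.05, and the share of all probes under it in that fit is not given here.

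The members with the most negative values in A549 at 24 h were INCENP (-0.08) and SKA2 (-0.02), and those with the most positive were SGOL2 and AURKA (0.23 each). INCENP was at -1.09, 0.34 and 0.42 with PBS in runs 1, 2 and 3 and at 0.29, 0.04 and -0.91 with Pirfenidone. SKA2 was at -1.19, -0.47 and -0.55 and then at -0.48, -0.59 and -1.19. For both, the lowest PBS array was that of run 1 and the lowest Pirfenidone array that of run 3. SGOL2 was at -2.03, -0.44 and -0.49 and then at -0.60, -0.81 and -0.84, and AURKA at 1.27, 2.70 and 2.83 and then at 2.89, 2.46 and 2.14. In all 4 genes the groups overlapped. Without both arrays of run 1 the differences of these genes were -0.82 for INCENP, -0.38 for SKA2, -0.37 for SGOL2 and -0.46 for AURKA, with the lowest adjusted p at 0.262, and the most positive members were MAD1L1 (0.13) and CENPQ (0.025).

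Across members, the A549 differences of runs 2 and 3 followed those of H1975 at 24 h, with a Pearson r of 0.61 and 0.70 (Spearman 0.50 and 0.68), and run 1 followed them with the opposite sign (Pearson -0.86, Spearman -0.81). These are descriptions over 46 members, whose H1975 arrays are the same each time. The passenger complex had a median of 1.44 in run 1, -0.24 in run 2 and -1.10 in run 3 of A549, and the inner kinetochore 0.95, -0.16 and -0.42.

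**Figure D5:**
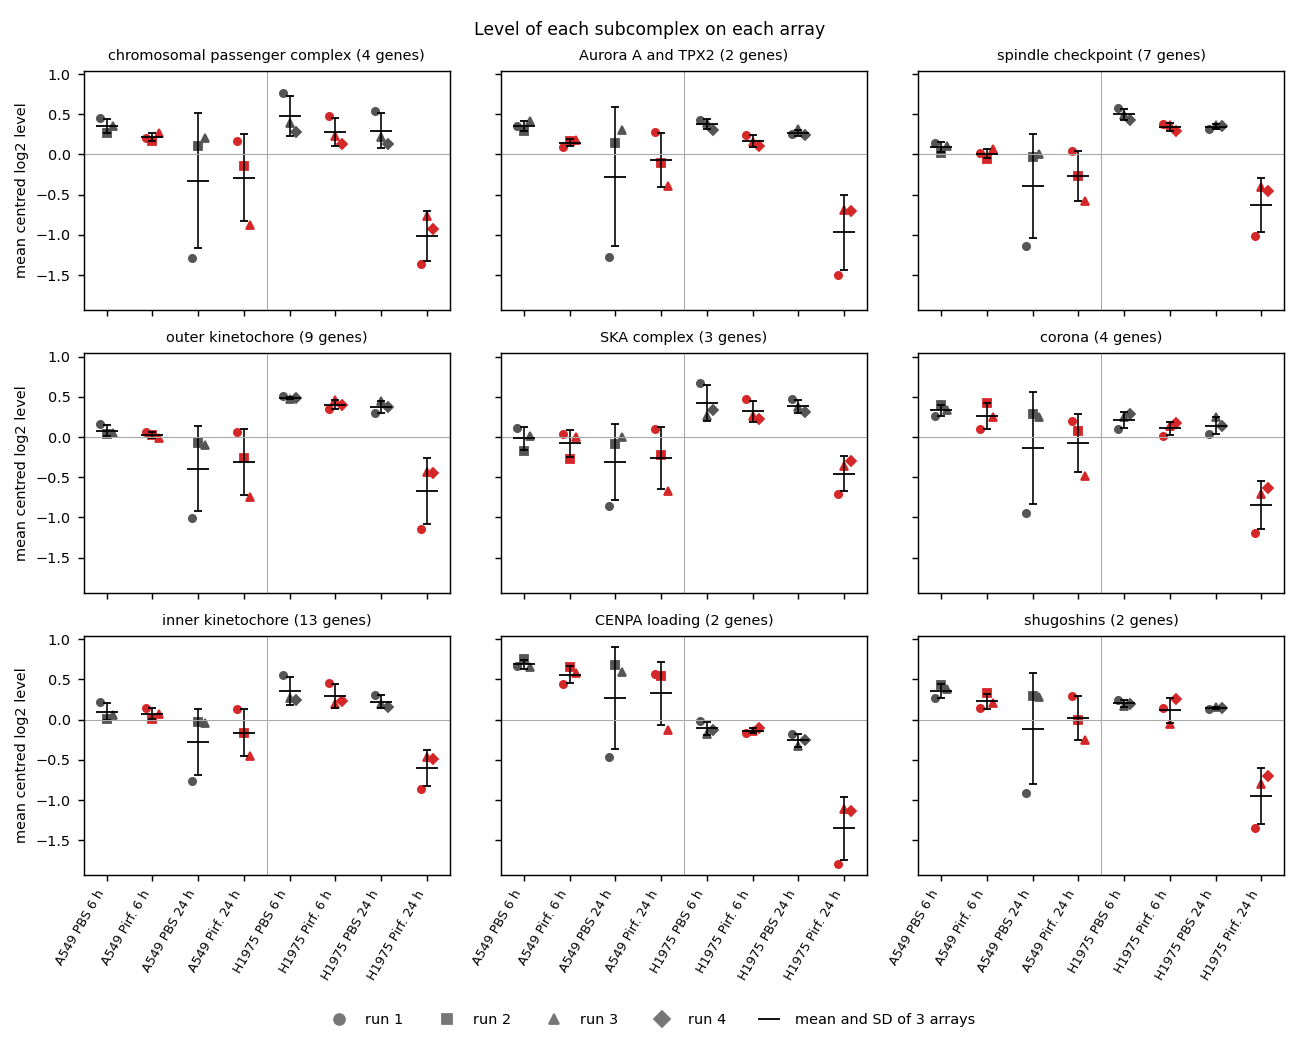
Mean level of the genes of each subcomplex on each array, each gene centered on its mean over the 24 arrays (log2 scale), with PBS in gray, Pirfenidone in red, a symbol per run, and the mean and SD of 3 arrays in black. Each of the 9 panels has its lowest H1975 group at Pirfenidone 24 h.

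Averaged over the 46 members, each centered on its mean, the level was 0.29, 0.27 and 0.22 in H1975 PBS 24 h and -1.09, -0.54 and -0.56 in H1975 Pirfenidone 24 h (runs 1, 3 and 4). In A549 it was -0.95, 0.05 and 0.06 with PBS at 24 h and 0.14, -0.14 and -0.56 with Pirfenidone at 24 h (runs 1, 2 and 3). The Pirfenidone array of A549 with the lowest level, run 3, was near the H1975 Pirfenidone arrays of runs 3 and 4. By subcomplex, the mean level in H1975 at 24 h went from 0.30 ± 0.22 to -1.02 ± 0.31 (SD, n = 3) for the passenger complex, from 0.35 ± 0.03 to -0.62 ± 0.34 for the checkpoint, from 0.37 ± 0.07 to -0.67 ± 0.41 for the outer kinetochore and from 0.22 ± 0.08 to -0.60 ± 0.22 for the inner kinetochore.

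At 6 h no member was called in either line. In A549, 34 members were negative and 12 positive, and the median was -0.076 (all probes -0.0125). An unadjusted limma p under 0.05 was found for 1 member, against 6.01% of all probes. The methods' t-test called 0 members, and 0.176% of all probes were called. HJURP had the most negative value (-0.27): it was at 4.08, 4.45 and 4.39 with PBS and at 3.68, 4.30 and 4.13 with Pirfenidone in runs 1, 2 and 3, and the groups overlapped. AURKA (-0.26) was at 2.996, 2.89 and 2.99 and then at 2.68, 2.71 and 2.69, with the groups apart. MIS12, at the other end, was at 0.27, 0.36 and 0.24 and then at 0.60, 0.89 and 0.57, again without overlap (0.39, adjusted p 0.712). SKA1 (0.14) was at -0.93, -1.20 and -0.71 and then at -0.65, -1.15 and -0.63, with overlap. These genes were named as the extremes of the members, and the share of all probes with groups apart is not given here. BIRC5 was at 5.44, 5.13 and 5.25 and then at 5.15, 5.03 and 5.12 (-0.17).

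H1975 at 6 h gave 35 negative and 11 positive members and a median of -0.084 (all probes 0.052). The call rate over all probes was 0.491%, and the methods' t-test called 0 members. By limma, 1 member had an unadjusted p under 0.05, against 11.03% of all probes. CENPO, of the inner network, was at 0.37, 0.20 and 0.21 with PBS and at -0.27, -0.23 and -0.33 with Pirfenidone in runs 1, 3 and 4. Its groups lay apart, and its difference of -0.54 did not pass (adjusted p 0.409). How many of all probes had groups apart at 6 h is not given here, and CENPO was named as an extreme of the members. BUB1B (-0.43) was at 1.26, 1.48 and 1.46 and then at 0.78, 1.14 and 1.001, also with the groups apart. CENPP, another protein of that network, was at 0.96, 0.67 and 0.65 and then at 1.18, 0.79 and 0.86 (0.18), and CENPF at 3.96, 4.21 and 4.34 and then at 4.01, 4.56 and 4.42 (0.16), both with overlap. BIRC5 was at 5.41, 4.65 and 4.61 and then at 4.98, 4.28 and 4.38, with run differences of -0.43, -0.37 and -0.23 and a difference over the groups of -0.34 (adjusted p 0.843). In both groups the run 1 array was the brightest.

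Whether the response differed between the lines was tested as the H1975 difference minus the A549 difference. At 24 h all 46 members were more negative in H1975, with a median of -1.15, but 0 were called (0.193% of all probes were). An unadjusted p under 0.05 was found for 41 members, against 12.2% of all probes. With slide as a block, 15 members were called, and the share of all probes called in that fit is not given here. CENPM had the lowest adjusted p (0.0713), and AURKA (-1.61), SPC25 (-1.58) and BUB1B (-1.57) had the largest sizes. Without both A549 24 h arrays of run 1 the median was -0.63, all 46 stayed negative and the lowest adjusted p was 0.255. In that fit 0 members were called, against 17 of the 23827 probes tested. Of the members 27 had an unadjusted p under 0.05, and the share of all probes under it is not given here. Runs 1 and 3 hold both lines. The median difference between the lines was -2.64 within run 1, with 46 members negative, and -0.21 within run 3, with 34 members negative and a range of -0.66 to 0.39. At 6 h the median was -0.026, with 0 members called and 0.0336% of all probes called. An unadjusted p under 0.05 was found for 0 members, against 2.63% of all probes.

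The change of the response from 6 h to 24 h was negative in all 46 members in H1975, with a median of -0.95. No member was called, against 0.00420% of all probes. Even so, 36 members had an unadjusted p under 0.05, against 5.86% of all probes. CENPF (-1.41) and SGOL1 (-1.28, adjusted p 0.324) had the largest sizes. Both A549 24 h arrays of run 1 take no part in this difference but in the shared estimate of the spread. Without them CENPA was called (-1.13, adjusted p 0.0277), against 2 of the 23827 probes tested. In A549 the same change was positive in 42 members (median 0.18), with 0 called and 0.0294% of all probes called. An unadjusted p under 0.05 was found for 0 members, against 3.04% of all probes. Without those arrays the change in A549 was negative in 45 (median -0.32) with 0 called, against 3 of the 23827 probes tested. At an unadjusted p under 0.05 were 3 members, and the share of all probes is not given here.

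In PBS alone, some members differed between the lines. Between the lines 32.4% of all probes were called at 6 h, and 4 of the 46 members were. NDC80 was at 1.73, 1.61 and 1.53 in A549 and at 2.89, 2.71 and 2.77 in H1975 (1.17 higher in H1975). CENPT was at -3.75, -3.67 and -4.27 and at -2.65, -2.68 and -2.90 (1.15), and MAD1L1 at -1.21, -1.13 and -1.11 and at 0.09, -0.21 and -0.23 (1.03). HJURP was the called gene with the higher level in A549, at 4.08, 4.45 and 4.39 against 3.31, 3.15 and 3.25 (-1.07). The lines did not overlap in any of the 4. The median of the members was 0.27, against 0.055 over all probes, and 12 members were higher and 4 lower in H1975 by the adjusted p. Over all probes 30.7% were higher and 27.9% lower by it, so the members' share was no larger than that of all probes.

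At 24 h in PBS, 7 of the 46 members were called higher in H1975 and 0 lower. Over all probes tested 32.9% were called in either direction. Called higher were 4284 of the 23827 probes, so the members' share was no larger than that of all probes. The members called were NDC80 (1.70), SPC24 (1.46), NUF2 (1.34), CENPN (1.29), CENPM (1.05), CDC20 (1.04) and CENPI (1.02), the first 3 of which are subunits of the NDC80 complex. The A549 array of run 1 bore on these values. NUF2 was at -0.32, 0.89 and 0.48 in A549 and at 1.65, 1.60 and 1.83 in H1975, SPC24 at -0.95, 0.17 and 0.22 and at 1.24, 1.35 and 1.23, and CDC20 at 0.34, 2.05 and 2.36 and at 2.49, 2.72 and 2.64. The run 1 array was the lowest A549 array each time. CENPN was at 2.35, 3.07 and 3.08 in A549 and at 4.35, 3.98 and 4.05 in H1975, CENPM at 2.64, 3.44 and 3.53 and at 4.35, 4.24 and 4.17, and CENPI at -3.73, -2.81 and -2.72 and at -2.02, -1.99 and -2.18, with the lines apart in all. By the adjusted p, with all arrays, 24 members were higher and 2 lower in H1975, against 32% and 27.2% of all probes. Without both A549 24 h arrays of run 1, 20 members passed it in either direction. In that fit 5 members were called, against 7737 of the 23827 probes tested. NDC80 (1.33), SPC24 (1.08), CENPN (1.05) and NUF2 (1.01) were higher in H1975 and HJURP lower (-1.31). The median of the members went from 0.69 to 0.22.

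Some of these differences between lines hung on the probe. The 2 probes of BUB3 had 0.64 and -0.64 at 6 h, those of SKA2 0.82 and -0.15 at 24 h, and the 3 probes of CENPN 1.29, -0.10 and -0.59 at 24 h, in order of brightness. The third probe of CENPM had -0.50. By contrast both probes of SPC24 gave 1.46 and 1.39 at 24 h and the 3 of CENPI 1.02, 1.19 and 0.66. Without both A549 24 h arrays of run 1 the 24 h values were 0.60 and -0.39 for SKA2, 1.05, -0.36 and -0.84 for CENPN, -0.78 for the third probe of CENPM, 1.08 and 0.99 for SPC24, and 0.70, 0.92 and 0.34 for CENPI, each with its sign kept.

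Time in PBS moved the members little in H1975: 38 were lower at 24 h than at 6 h, with a median of -0.15. None was called, against 0.315% of all probes, and 0 had an unadjusted p under 0.05, against 10.6% of all probes. In A549, 44 were lower with a median of -0.50. None was called, against 0.109% of all probes, and 16 had an unadjusted p under 0.05, against 8.49% of all probes. Without both arrays of run 1 the A549 median was -0.14, with 42 members lower and 0 called, against 13 of the 23827 probes tested. At an unadjusted p under 0.05 was 1 member, and the share of all probes is not given here.

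Some other genes of mitosis, listed by role, were also called lower in H1975 at 24 h. Over all probes tested 47.1% had a negative difference. Of 22 other kinetochore and centromere genes 4 were called lower, 6 passed the adjusted p and 19 were negative, with a median of -0.40: the mitotic kinase PLK1 (-1.36, adjusted p 0.0318), the microtubule depolymerase KIF2C (-1.20, adjusted p 0.0286), the ATPase TRIP13 that takes MAD2 apart from its partners (-1.16, adjusted p 0.0326) and sororin, CDCA5, a guard of cohesion (-1.09, adjusted p 0.0100). Of 21 genes of the anaphase ligase, its regulators and its targets, 2 were called lower, 7 passed the adjusted p and 20 were negative, with a median of -0.31. These were separase, ESPL1 (-1.41, adjusted p 0.00829), and UBE2C, the ubiquitin-conjugating enzyme of the ligase (-1.06, adjusted p 0.0295), and the third largest difference was that of securin, PTTG1 (-0.97, adjusted p 0.0333). Of 11 general cell cycle genes 4 were called lower, 8 were lower past the adjusted p and 9 were negative, with a median of -0.85. Those called were MKI67 (-1.36), CCNA2 (-1.20), CCNB1 (-1.18) and TOP2A (-1.09). The CDK inhibitor CDKN1A was the 1 gene of these lists that was higher past the adjusted p (0.95, adjusted p 0.0326). In the other 3 drug comparisons no gene of these lists was called, nor in A549 at 24 h without both arrays of run 1. In that fit the medians were -0.25 for the other kinetochore genes, -0.21 for the anaphase genes and -0.40 for the general cell cycle genes. At an unadjusted p under 0.05 were 6, 4 and 4 genes, and the share of all probes under it is not given here. MKI67 and TOP2A, both markers of dividing cells, thus moved with the members, and their part in the result was not tested.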

How the data were processed

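The authors deposited 1 scanner file per array, made with Agilent Feature Extraction 11.5.1.1 per the file headers, with the background-subtracted intensity of each spot, and a table of processed log2 values whose probes are centered over the arrays, by steps that are not stated in the sources. The deposited log2 values, used as an alternative, correlated with the scanner values, centered likewise, with an r of 0.9986, and their column medians lay between -0.162 and 0.155. From each array's log2 processed signals the 75th percentile over the 43118 non-control spots was subtracted. Outlier spots were then removed, and replicate spots were averaged per probe. Tests used limma 3.58.1 in R 4.3.3 (lmFit, eBayes) on the 23827 of 34127 probes well above background (a share of 0.5 of the spots or more) in a whole group of 3 arrays. The 8 group means were fitted together (16 residual degrees of freedom), with Benjamini-Hochberg adjustment. The methods' moderated test with permutation was replaced, since 3 arrays against 3 allow no p below 0.1. The methods' t-test was paired by run. Differences are Pirfenidone minus PBS, H1975 minus A549 and 24 h minus 6 h, with 12 comparisons in all. The steps were tested on simulated data.

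The members and the gene lists were chosen with earlier results of these data known. Values per array are given for BIRC5, for members called, for the 2 most negative and the 2 most positive members of each drug comparison and for at least 1 member of each subcomplex. Other genes are named where called or among the 3 largest in H1975 at 24 h. CDKN1A, MAD2L1, TTK and the others outside this rule were chosen after their values were seen. Probe positions are those of the files on hg19. Promoters are RefSeq's on GRCh38.p14. Place on the slide was set by treatment and time and cannot be told apart from them. Replicate numbers did not pair the samples in every comparison. Deviations from the group means correlated between same-numbered arrays with r of 0.58 to 0.70 in A549 at 6 h and 0.46 to 0.72 in H1975 at 24 h, but of -0.10 to 0.39 in A549 at 24 h and of -0.48, 0.43 and -0.68 in H1975 at 6 h, where the numbers do not follow the runs. The number of arrays limits the precision.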

Additional observations from a re-analysis of the deposited data

How the results depend on the processing

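The count of 25 members called lower in H1975 at 24 h was 0 with Holm adjustment, 38 with no fold limit, 14 with normexp, 3 in a fit of only the arrays compared and 0 by the methods' t-test after Benjamini-Hochberg adjustment (20 at its unadjusted p). It ranged from 1 to 27 when each array was left out, with 1 without Pirfenidone 24 h replicate 3 (run 1) and 9, 15 and 8 without H1975 PBS 24 h replicates 1, 2 and 3. It was 25 with the replicate block, 25 with run as a block, 26 with slide as a block, 29 with the authors' values, 28 with quantile normalization, 22 with no filter, 24 with the mean of all probes and 25 without both A549 24 h arrays of run 1. The replicate block changed no other count of members by over 1.5 times. BIRC5 in H1975 at 24 h was called in 32 of 38 settings besides the unadjusted test, with adjusted p from 0.00205 to 1. It was not called without H1975 PBS 24 h replicate 3 (0.0941), without Pirfenidone 24 h replicate 3 (0.116) or with normexp (0.0507). Nor was it called in the fit of only the arrays compared (0.0565), by the methods' t-test after adjustment (0.193) or with Holm adjustment. CDC20 was called in 15, CENPF in 16 and CENPM in 35 of the 38, and every member stayed negative in each. Leaving out an array of another group kept the BIRC5 difference at -1.37, so such settings bear only on the spread and the adjustment. The sign was fixed in them, and the 38 settings are not 38 separate checks. The medians when each array was left out ranged from -1.11 to -0.86 in H1975 at 24 h, from -0.13 to -0.052 in H1975 at 6 h, from -0.13 to -0.024 in A549 at 6 h and from -0.25 to 0.29 in A549 at 24 h, where the sign turned without PBS 24 h replicate 3 (-0.25) or Pirfenidone 24 h replicate 3 (-0.087). The H1975 median at 6 h was -0.16 with normexp. In PBS, the count between the lines at 24 h (7) was 0 with Holm adjustment, 26 with no fold limit and 5 to 16 when each array was left out (16 without A549 PBS 24 h replicate 1, 14 without replicate 2). At 6 h (4) it was 1 with Holm adjustment, 16 with no fold limit and 3 to 5 when each array was left out. The difference of response between lines at 24 h had 15 members called with slide as a block and 0 to 4 when each array was left out (4 without A549 Pirfenidone 24 h replicate 2). That between times in H1975 had 1 without both A549 24 h arrays of run 1 and 0 to 1 when each array was left out. For most of these settings the share of all probes called is not given here. The cause of the changes in count between settings was not tested.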
